A study of Mus musculus with 7 samples.

Results

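The Gimap genes encode GTPases of the immunity-associated family, a group of guanine nucleotide-binding proteins that lie side by side on mouse chromosome 6. The 8 genes examined were Gimap1, Gimap3, Gimap4, Gimap5, Gimap6, Gimap7, Gimap8 and Gimap9. Regions were chosen by position alone: a region belonged to a gene when its midpoint lay in the gene body or within 10 kb of it. This gave 5 of the 4934 Runx3-bound regions and 28 of the 76705 H3K4me1-marked regions called in resting CD8+ T cells (CD8-TC), all between chromosome 6 positions 48587233 and 48726518 of the mouse build mm9, an interval of 139 kb. The positions come from chromatin immunoprecipitation with sequencing (ChIP-seq) of untreated wild type mice of the ICR strain, with splenic cells of 18 animals pooled and CD8-TC drawn out on magnetic beads to a labelled purity above 95%. There were 3 libraries from 2 repeats with a home-made polyclonal antibody against Runx3, 2 libraries with an antibody against H3K4me1, and 2 control libraries with non-immune rabbit serum (NIS). The age of the mice is not given in the sources used here.

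Gimap proteins are found mainly in lymphocytes, where they sit on the membranes of organelles and bear on whether a resting T or B cell survives. Runx3 is a transcription factor of cytotoxic lymphocytes that binds DNA through its Runt domain, often beside ETS factors. H3K4me1 is monomethylation of histone H3 at lysine 4, a mark of enhancers and of the flanks of active promoters. Each antibody gave 1 list of regions called on the joined reads of its repeats, so no value below has a replicate error and no test between conditions was possible. The lists hold neither read counts nor heights, so the depth behind a region is unknown. Where a list has no region, binding below the threshold of the caller cannot be told apart from no binding. A mark in fewer cells cannot be told apart from less of the mark in each cell.

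The 5 Runx3-bound regions are named R1 to R5 here in the order of their positions. Their sequences are shown because the RUNX motif is the part of the DNA that Runx3 recognises and the regions differ in how it is arranged. For each region the 200 bp with the most RUNX motifs are given on the plus strand of mm9, leaving out transcribed untranslated and coding sequence, so that the printed windows were picked for their motifs. Capitals mark the RUNX motif, which was searched on both strands in 4 variants: the form TGTGGT (on the minus strand printed as ACCACA), the form TGTGGC (printed as GCCACA), the form TGCGGT (printed as ACCGCA) and the form TGCGGC (printed as GCCGCA).
R1, chr6:48630485-48630684: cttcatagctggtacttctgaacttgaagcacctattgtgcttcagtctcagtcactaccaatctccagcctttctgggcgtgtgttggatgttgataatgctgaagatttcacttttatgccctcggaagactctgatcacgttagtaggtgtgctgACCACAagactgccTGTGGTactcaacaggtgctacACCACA
R2, chr6:48647115-48647314: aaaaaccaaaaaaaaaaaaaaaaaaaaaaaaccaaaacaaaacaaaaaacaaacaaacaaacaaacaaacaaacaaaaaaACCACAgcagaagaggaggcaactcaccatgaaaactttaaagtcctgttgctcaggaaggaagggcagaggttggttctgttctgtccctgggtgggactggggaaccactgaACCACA
R3, chr6:48682847-48683046: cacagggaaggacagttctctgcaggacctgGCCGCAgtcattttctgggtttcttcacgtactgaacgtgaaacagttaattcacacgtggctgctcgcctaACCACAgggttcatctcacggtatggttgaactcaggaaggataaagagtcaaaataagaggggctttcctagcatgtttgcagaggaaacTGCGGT
R4, chr6:48687152-48687351: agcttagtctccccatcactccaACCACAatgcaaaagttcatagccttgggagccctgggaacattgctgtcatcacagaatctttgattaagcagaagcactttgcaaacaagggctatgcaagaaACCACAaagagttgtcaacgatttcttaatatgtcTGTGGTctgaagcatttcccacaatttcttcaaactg
R5, chr6:48695996-48696195: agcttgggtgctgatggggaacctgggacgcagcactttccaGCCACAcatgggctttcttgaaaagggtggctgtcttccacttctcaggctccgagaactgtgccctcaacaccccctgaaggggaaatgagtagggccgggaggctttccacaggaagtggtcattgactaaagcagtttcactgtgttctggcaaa

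R1 was the widest of the 5 regions. It spanned 48629414 to 48631105, a width of 1692 bp, which was the 26th largest of the Runx3 list, where the median was 851 bp. It lay between genes, downstream of Gimap9 and upstream of Gimap4, a gene linked to the death of T cells. Its midpoint was 4131 bp downstream of the Gimap9 start site and 2749 bp downstream of the start of a shorter Gimap9 transcript. R1 held 6 RUNX motifs, and 3 of them stood within 42 bp, at 48630643 to 48630684, the right-hand end of the sequence printed for R1. No RUNX motif was found in the central 200 bp of R1, and 3 motifs stood on each side of it.

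R2 lay between Gimap4 and Gimap6, at 48646939 to 48647461. It was 523 bp wide and ranked 4800th in width. Gimap6, which encodes a partner of the autophagy protein Gabarapl2, starts 11024 bp away, and R2 lay beyond its 3' end. R2 held 3 RUNX motifs, all of them TGTGGT. The last of these, at the right-hand end of the printed sequence, was followed by an ETS motif (AGGAAA, minus strand) just beyond it, with 0 bp between them. Of the 32-mers of R2, 20.1% occurred more than once in the genome, and a run of adenines opens its printed sequence.

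R3 and R4 lay upstream of Gimap1, which is required for mature T and B cells to persist. R3 spanned 48682322 to 48683504 (1183 bp) with its midpoint 6140 bp before the start site of Gimap1, and R4 spanned 48686987 to 48687515 (529 bp) with its midpoint 1802 bp before it. Both also fell in an intron of a read-through transcript that the annotation counts as Gimap1, which runs from the start of Gimap7 into Gimap5. R3 held 5 RUNX motifs of all 4 variants, and a TGCGGT stood 1 bp from an ETS motif AGGAAA, as can be read at the right-hand end of its sequence. R4 held 6 RUNX motifs, as many as the much wider R1. That is 11.3 motifs per kb, against 3.55 in R1, 5.74 in R2, 4.23 in R3 and 3.19 in R5, and a median of 2.77 over all Runx3-bound regions.

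R5 covered the start site of Gimap5, the member best known for its loss, which leaves rats and mice with few T cells. It spanned 48695749 to 48696688 (940 bp), and its midpoint lay 22 bp downstream of the start site at 48696196. Of the 5 regions, R5 alone lay within 1 kb of a transcription start site, beside 20.7% of all Runx3-bound regions. It held 3 RUNX motifs, 2 TGTGGC and 1 TGCGGT, and was the only one of the 5 without TGTGGT. Its GC content was 54.1%, whereas R1 to R4 lay between 42.7% and 45.4% and the median of the list was 45.9%.

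**Figure D1:**
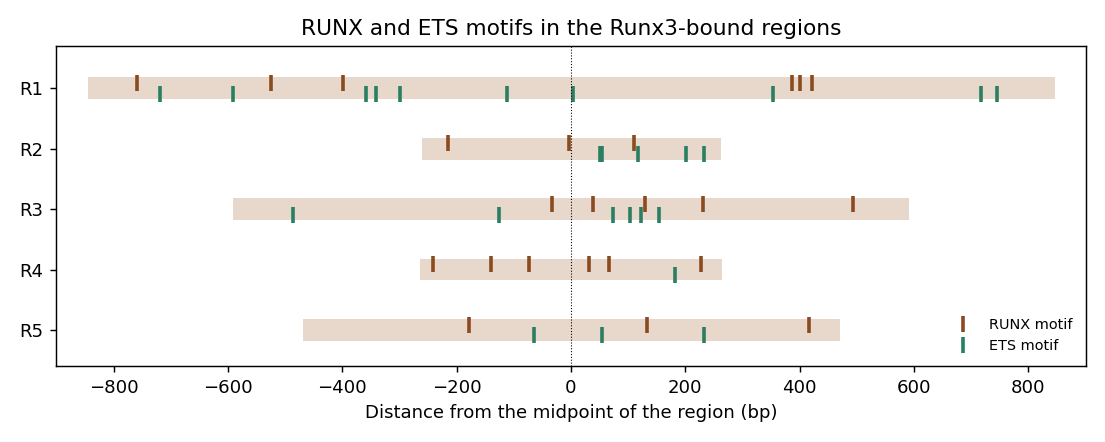
RUNX and ETS motifs in the 5 Runx3-bound regions of the Gimap cluster. The x axis gives the distance from the midpoint of each region in bp, pale bars show the called regions, and ticks show motifs on either strand. R4 holds 6 RUNX motifs within 529 bp, and R1 holds 3 within 42 bp.

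All 5 regions held at least 1 RUNX motif, as did 88.8% of the whole list, and all 5 held 3 or more, as did 45.4% of the list. The 23 motifs comprised 13 TGTGGT, 7 TGTGGC, 2 TGCGGT and 1 TGCGGC, and 21 of them lay inside H3K4me1-marked DNA. In the central 200 bp a RUNX motif was present in 3 of 5 regions (R2, R3 and R4), beside 66.0% of the list. An ETS motif (the form AGGAAA, the form AGGAAG, the form CGGAAA or the form CGGAAG, either strand) was present there in 4 of 5 regions, R4 being the exception, beside 63.8% of the list. The motif of TCF factors (the form CTTTGAA, the form CTTTGAT or the form CTTTGTT) was found there in R4 alone, beside 16.7% of the list. Neither the AP-1 motif (TGACTCA or TGAGTCA, 4.58% of the list) nor the GATA motif (AGATAA or TGATAA, 18.5% of the list) was found in the central 200 bp of the 5 regions.

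The interval held 231 RUNX motifs in all, or 1.66 per kb. The Runx3-bound regions made up 3.49% of its length and held 23 (9.96%) of these motifs. H3K4me1-marked DNA outside them held 143 motifs at 1.71 per kb, and DNA without the mark held 67 at 1.31 per kb. Of the 164 RUNX motifs in marked DNA, 143 thus lay outside the called Runx3-bound regions.

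**Figure D2:**
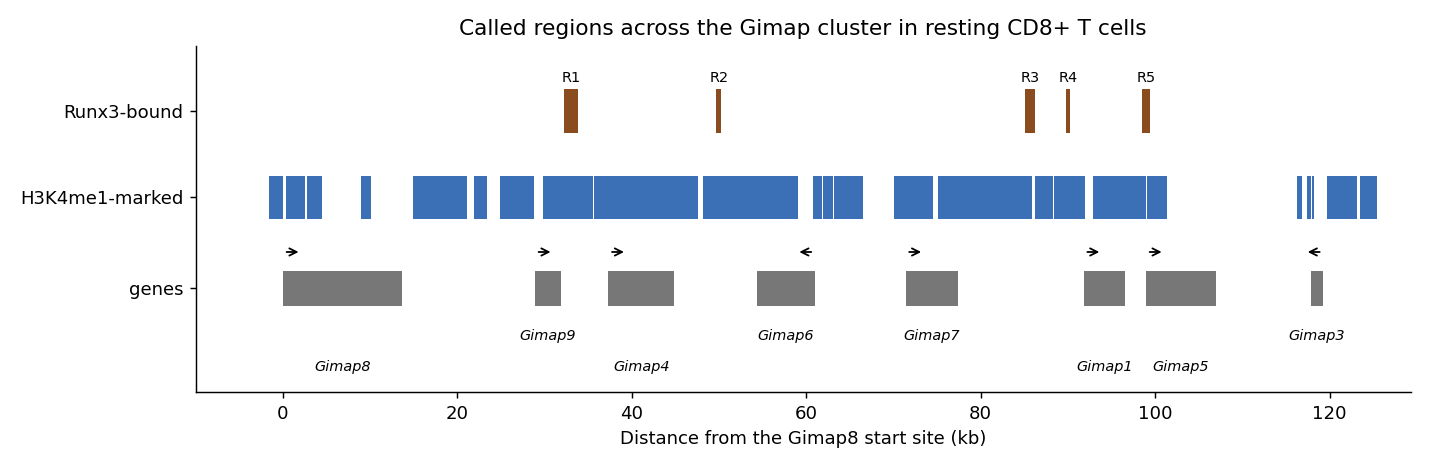
Map of the Gimap cluster. The x axis gives the distance from the Gimap8 start site in kb, grey boxes are gene bodies (Gimap1 without read-through transcripts), arrows give the direction of transcription, and coloured boxes are called regions. The 5 Runx3-bound regions lie between Gimap9 and Gimap5, and each overlaps H3K4me1-marked regions. The longest unmarked stretch, 14904 bp, runs from within Gimap5 towards Gimap3.

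Runx3-bound regions were unevenly shared out among the genes. Within 10 kb, Gimap1 had 3 (R3, R4 and R5), Gimap4 had 2 (R1 and R2), Gimap5 had 2 (R4 and R5), and Gimap6, Gimap7 and Gimap9 had 1 each (R2, R3 and R1). Each of the 5 regions was thus counted for 2 genes. Gimap8 and Gimap3, at the 2 ends of the cluster, had 0, and their start sites lay 32181 and 19830 bp from the nearest Runx3-bound region. In all 6 of 8 genes had a region, beside 15.5% of the 22367 protein-coding genes, and 3 or more regions, as at Gimap1, were found for 0.939% of them. The genes share their surroundings and are not independent. With the gene body alone only Gimap1 and Gimap5 had a Runx3-bound region, R3 and R4 through the read-through transcript, and with 20 kb all 8 genes had one.

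The nearest Runx3-bound regions outside the cluster lay well beyond the 10 kb margin. The closest, at 48751617 to 48752667, was 35624 bp from the body of Gimap3, and the next, at 48767595 to 48768231, was 51395 bp away. On the Gimap8 side the nearest was 92374 bp away, at 48504415 to 48505303. Among the regions inside, R3 lay farthest out, 6140 bp from the body of Gimap1 without its read-through transcripts, followed by R2 at 4381 bp from Gimap6. The number of regions was 5 with margins of 5, 10 and 20 kb, but with 5 kb R3 was included only through the read-through transcript counted as Gimap1.

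For a view of density, the chromosomes were cut into 18936 consecutive windows of the length of the Gimap interval. Of these, 53 (0.280%) held 5 or more Runx3-bound regions, the median was 0 and the highest number was 9. The Gimap interval had 35.9 Runx3-bound regions per Mb, against 1.87 over chromosomes 1 to 19 and X. These figures rank the interval and carry no test, since the genes were listed with earlier results of these data known.

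H3K4me1 covered most of the cluster. The 28 marked regions took up 88.3 kb, or 63.4% of the interval, against 4.14% of the chromosomes, and 7 of the 18936 windows (0.0370%) had at least this cover, with a highest value of 78.2%. All 8 genes had a marked region within 10 kb, beside 69.9% of all protein-coding genes. The covered share of each gene with its 10 kb margins was highest for Gimap4 at 94.1%, followed by Gimap9 at 85.5%, Gimap7 at 82.3%, Gimap6 at 77.0% and Gimap1 at 63.3% (73.0% without the read-through transcripts). Gimap8 had 42.6%, Gimap5 42.3% and Gimap3 30.7%. The median over all protein-coding genes was 5.88% and the 90th percentile 28.2%, so that every Gimap gene lay above the latter. Only 3 genes, Gimap4 included, reached the cover of Gimap4, and 1845 genes (8.25%) reached that of Gimap3.

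**Figure D3:**
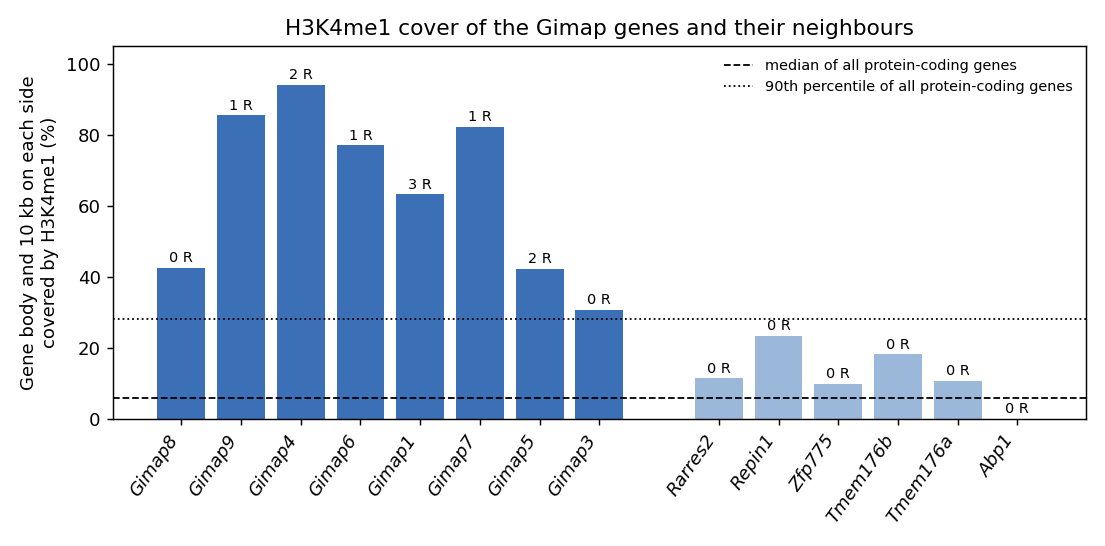
H3K4me1 cover of the 8 Gimap genes (dark bars, in genomic order) and of their listed neighbours on chromosome 6 (pale bars). The y axis is the percentage of the gene body and 10 kb on each side that is covered, and the number before R is the count of Runx3-bound regions. Gimap4 stands highest at 94.1% and Gimap3 lowest of the family at 30.7%, above the neighbours at 0 to 23.4%.

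The marked regions were wide. Their median width was 2022 bp (quartiles 1077 and 3852 bp, range 319 to 11001 bp) against 979 bp over the list, and 22 of 28 were wider than the list's median. Of the 28, 10 were above the list's 90th percentile of 2765 bp. The 3 widest had nearly the same size. The first, 48633784 to 48644784 (11001 bp), held the whole body of Gimap4 including its start site. The second, 48645385 to 48656323 (10939 bp), ran through R2 into Gimap6, and the third, 48672325 to 48683114 (10790 bp), ran from the body of Gimap7, a member that stimulates its own GTP hydrolysis by pairing, to R3. They ranked 225th, 231st and 241st in a list whose widest region has 51809 bp. The 3 narrowest, with 319, 411 and 520 bp, all stood beside or in Gimap3, between 48713532 and 48715496.

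**Figure D4:**
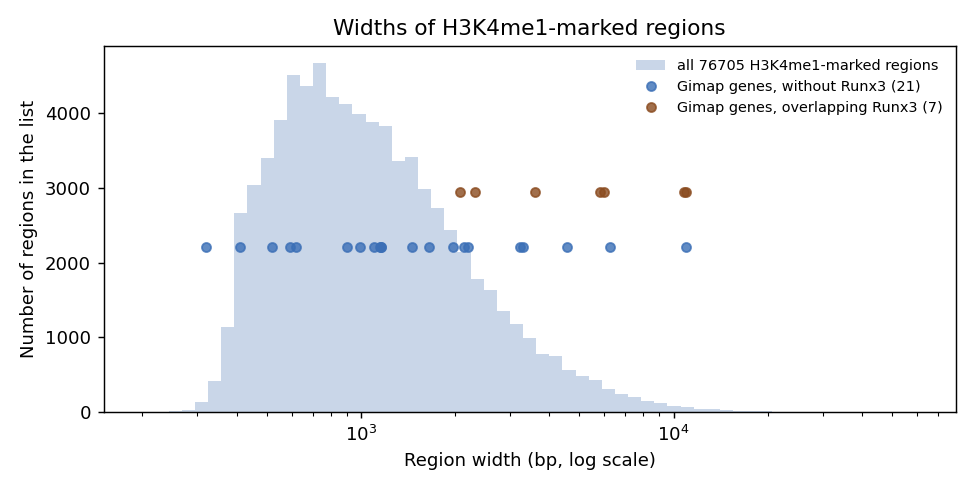
Widths of H3K4me1-marked regions. The x axis is the width in bp on a log scale, the histogram shows all 76705 regions on the y axis, and the points show the 28 regions at the Gimap genes at arbitrary heights. The 7 that overlap a Runx3-bound region are at least 2076 bp wide.

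When neighbours within 1 kb were merged, the 28 regions fell into 8 blocks. The largest reached from 48622119 to 48656323, a width of 34205 bp of which 95.2% was marked, and held R1, R2 and the start sites of Gimap9 and Gimap4. The next reached from 48667247 to 48698627, a width of 31381 bp of which 93.6% was marked, and held R3, R4, R5 and the start sites of Gimap7, Gimap1 and Gimap5. They ranked 46th and 59th in width among 48155 merged regions. All 5 Runx3-bound regions thus lay in these 2 blocks, and the other 6 blocks held 0.

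The longest stretch of the interval without a called H3K4me1 region began in the body of Gimap5. It measured 14904 bp and ran from 48698628 to 48713531, on the 3' side of Gimap3. It held 18 RUNX motifs. In this stretch 25.5% of 32-mers were repeated in the genome, against 8.49% over the interval. Repeated DNA yields fewer uniquely aligned reads, and its part in this gap was not tested. Outside the cluster the nearest marked regions had midpoints 18495 bp from Gimap3 and 18582 bp from Gimap8, and the regions inside that lay farthest from a gene body were 5166 bp from Gimap3 and, between Gimap8 and Gimap9, 6224 bp away.

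All 5 Runx3-bound regions overlapped H3K4me1-marked DNA (exact 95% binomial interval 47.8 to 100%, for counting error only), beside 78.8% of the list. The binomial interval treats the 5 regions as independent, but they are neighbours in the 2 widest merged blocks. R1, R2 and R4 lay wholly inside a marked region, and 75.3% of R3 and 83.2% of R5 was marked. R3 and R5 each bridged a gap between 2 marked regions, as did 10.5% of all Runx3-bound regions with 2 or more marked regions under them. The gap under R3 measured 292 bp and 32.2% of its 32-mers were repeated, whereas the gap under R5 measured 158 bp and 0% were repeated. The midpoint of R5 lay in that gap. Seen from the mark, 7 of 28 regions overlapped Runx3 (5.49% of the list). Their median width was 5806 bp against 1157 bp for the other 21, and over the list the corresponding medians were 2260 and 946 bp.

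The start sites were then examined one by one, since H3K4me1 often flanks an active start site rather than covering it. Inside a marked region lay 5 of 8 start sites, those of Gimap8, Gimap4, Gimap6, Gimap7 and Gimap1, beside 17.7% of all protein-coding genes. The mark covered 63.4% of the whole interval, so this count is near the cover of the cluster itself. The positions differed in detail. Gimap4 and Gimap7 started deep within a marked region, 764 and 1373 bp from its nearest edge. The start site of Gimap8, which encodes a large member with several GTPase domains, lay 14 bp from the edge, and an unmarked gap of 374 bp followed 15 to 388 bp downstream.

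Unmarked gaps stood beside other start sites too. Gimap1, taken without its read-through transcripts, had a gap of 954 bp from 151 to 1104 bp downstream of its start site. Gimap6 had one of 1725 bp from 176 to 1900 bp downstream. Gimap9 started inside a gap of 947 bp that opened 79 bp upstream, and Gimap5 inside the gap of 158 bp noted under R5, which opened 41 bp upstream and closed 116 bp downstream. Hence 5 of 8 start sites lay within 200 bp of an edge of a marked region, beside 27.8% of all protein-coding genes. The 5 include Gimap1 by its start without read-through transcripts, at 48689053, whereas the share over all genes used the start of each gene record. The record of Gimap1 starts at 48668606, inside the marked region 48667247 to 48671821. That is more than 200 bp from either edge, so by its record Gimap1 would not count. The distance of 200 bp was chosen after these values were seen. Repeated 32-mers made up 0 to 9.33% of these 5 gaps.

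**Figure D5:**
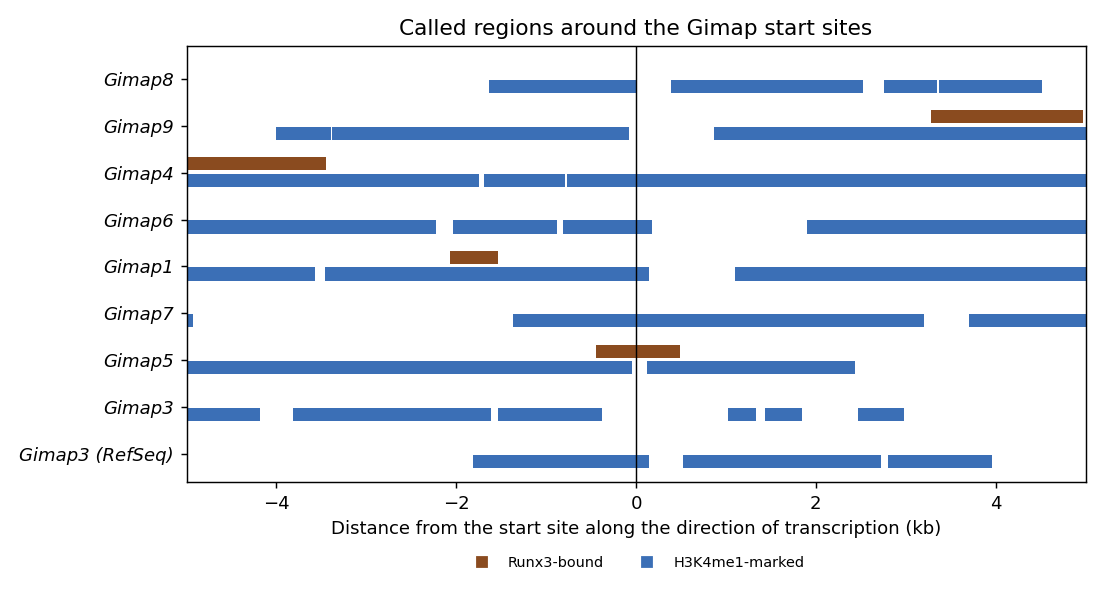
Called regions around the Gimap start sites. The x axis is the distance from the start site in kb along the direction of transcription, and each row is a gene, with a second row for the RefSeq start site of Gimap3. Blue boxes are H3K4me1-marked and brown boxes Runx3-bound regions, and Gimap1 is shown without read-through transcripts. Unmarked gaps open just after the start sites of Gimap8, Gimap6 and Gimap1 and lie over those of Gimap9 and Gimap5, and R5 spans that of Gimap5.

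Gimap3, whose product sits on mitochondrial membranes and is close kin to Gimap5, depended on the gene model. The GENCODE record ends at 48716518, in a gap of 1395 bp and 374 bp from the nearest marked region. The RefSeq promoter sequence of Gimap3 matched mm9 once, on the minus strand, and places the start site at 48720850. This position lay inside the marked region 48720701 to 48722668, with a gap of 370 bp from 150 to 519 bp downstream. With RefSeq start sites 6 of 8 genes had a start inside a marked region, all but Gimap9 and Gimap5. Gimap8 was counted through its start at 48597233, and a further RefSeq start of Gimap8, at 48597360, lay outside, 113 bp from the nearest marked region.

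Promoter sequences were searched for the same motifs. The RefSeq promoters of all 8 genes matched the mm9 chromosome exactly, and in the 250 bp upstream 7 of 8 genes held a RUNX motif, 1 each, the exception being Gimap6. This compares with 38.0% of 32851 RefSeq promoters. An ETS motif was present for 8 of 8 genes in at least 1 promoter, beside 57.2% of promoters. The promoter motif of Gimap5, a GCCACA on the printed strand of R5, was the only one of the 7 that lay in a called Runx3-bound region.

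Other genes were set beside the Gimap genes. Zfp775, Repin1, Rarres2, Tmem176a, Tmem176b and Abp1 flank the cluster on chromosome 6, and 0 of 6 had a Runx3-bound region within 10 kb, beside 15.5% of all protein-coding genes, and with 6 genes this count is near that share. Their H3K4me1 cover ranged from 0% at Abp1 to 23.4% at Repin1, with a median of 11.1%, against a median of 70.2% for the Gimap genes. The listed genes Kcnh2, Nos3, Atg9b and Abcb8 lie on chromosome 5 of mm9 and had 0 Runx3-bound regions and a cover of 8.71 to 21.7%. Among 8 genes of the Bcl-2 family, which governs mitochondrial cell death and with which Gimap proteins have been reported to interact, 3 had a Runx3-bound region, beside the same 15.5%: Bcl2 with 2, Bcl2l1 with 1 and Bcl2l11 with 1. The anti-apoptotic Bcl2 had 51 H3K4me1-marked regions over a long gene and a cover of 52.1%, Mcl1 had a cover of 86.9% with 0 Runx3-bound regions, and the median of the family was 26.2%.

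Marker genes were compared in the same way. The 8 T-cell genes Cd3e, Cd3d, Cd3g, Cd8a, Cd8b1, Cd2, Lck and Cd5 each had regions of both lists, beside 15.5% of all protein-coding genes for Runx3 and 69.9% for H3K4me1, with a median cover of 46.5%. Of 6 B-cell genes, all had H3K4me1-marked regions, beside the same 69.9%, with a cover of 20.3% (Pax5) to 74.3% (Cd79b) and a median of 37.7%, and 4 had a Runx3-bound region, beside 15.5% of all protein-coding genes. The 4 myeloid genes had a cover of 0 to 31.4% with a median of 9.91%, and the 4 erythroid genes 0 to 30.8% with a median of 1.27%. An H3K4me1-marked region was present for 3 of 4 myeloid and 2 of 4 erythroid genes, counts near the 69.9% of all protein-coding genes for lists this small. Lyz2, Hba-a1 and Hbb-b1 had 0 regions of either list. Itgam had 17 H3K4me1-marked regions (31.4%) and Klf1 had 7 (30.8%), covers close to the 30.7% of Gimap3. Of these 8 genes 1, Itgam, had a Runx3-bound region, a share near the 15.5% of all genes. B cells also express Gimap genes, and the part of other lymphocytes in the values of the cluster was not tested.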

How the data were processed

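ChIP-seq regions of resting splenic CD8-TC were analysed for the Gimap genes. The authors aligned reads of 40 to 42 bp to mm9 with ELAND, kept unique alignments and ran MACS on the joined repeats of each antibody with joined NIS reads as control, scaling the larger set down. The processing notes name CASAVA 1.6 and 1.7. The deposited lists give positions in bp alone, with 1 list for Runx3 and 1 for H3K4me1. Starts were moved by 1 bp to browser positions. Genes were taken from GENCODE on NCBIM37, which is mm9. A region overlapped another from 1 shared bp. RefSeq promoters (GRCm38.p6) were placed on mm9 by exact sequence match only. Repeated DNA was counted as 32-mers occurring more than once in the genome. Interval and motif counting were tested on simulated data. All Runx3-bound regions of the members are named. Of the H3K4me1-marked regions, the 3 widest are given by position and the 3 narrowest by width and joint span. Those at start sites or under Runx3 are mostly described by their gaps, edges or summary widths. Members and lists were chosen with earlier results of these data known, and gene-model and start-site alternatives after the values were seen. Python 3.11.15, numpy 2.4.6, pandas 2.3.3, scipy 1.17.1, numba 0.67.0 and matplotlib 3.10.9 were used.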

Additional observations from a re-analysis of the deposited data

How the results depend on the processing

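Of 28 alternative values for 9 results, 21 stayed close to the reported value (counts within 1.5 times), and 4 were added after the values were seen. The number of Runx3-bound regions at the Gimap genes was 3 with gene bodies alone and 3 among regions at or above the list's median width, which stood in for a stricter threshold because the lists hold no score. The number of H3K4me1-marked regions was 12 with gene bodies alone and 8 with neighbours within 1000 bp merged. Gene bodies alone left 2 genes with a Runx3-bound region. A RUNX motif was found in 3 regions when the 200 bp around the midpoint were searched. The share of repeated sequence was 13.2% with 24-mers against 8.49%. Gene bodies alone, wider regions and the central 200 bp are narrower definitions, merging joins neighbours, and shorter words recur more often. No paired analysis was possible because the repeats of an antibody were joined before calling, which also meant that leaving out 1 repeat was not possible. The precision is limited by 5 Runx3-bound regions.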

Other observations

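The Gimap genes arose as a family of similar genes, so the 5 Runx3-bound regions were compared with each other by sequence. Over their 10 pairs, the longest run of identical bases on either strand was 8 to 14 bp in all pairs but R1 with R3. That pair shared a run of 34 bp in which 31 of 32 bases repeat the base standing 2 positions before, that is, a dinucleotide repeat. In this measure no 2 of the regions were copies of each other.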
